A study of Mus musculus with 24 samples.

Results

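The comparison described here set 8 hypothalamus libraries from mice given a PSD-95 inhibitor against 6 libraries from mice given saline, 14 of the 24 libraries in the series. Every library labelled PSD-95i was a member. A saline library was a member if growth hormone mRNA (Gh), which the pituitary and not the hypothalamus produces in quantity, stayed below 1000 CPM (counts scaled to a common library total). That rule left out saline replicates 2 and 3, at 52238 and 31688 CPM of Gh. The 6 saline libraries that remained (replicates 1 and 4 to 8) held 0.122 to 2.44 CPM and the PSD-95i libraries 0 to 41.4 CPM, so no library lay near the limit. These Gh levels chose the members and are given as a description.

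All mice were male, double-housed and obese from their diet, and weighed 53 g on average. The PSD-95i group received UCCB01-147 at 25 mg/kg and the control group isotonic saline, by injection once a day for 5 days. The early injections came before the dark phase and the last on the morning of day 5, and the whole hypothalamus was frozen 2 h after it. Both groups therefore share the obesity, and no lean or untreated mice enter the comparison. A whole hypothalamus pools many nuclei, so a difference in a small nucleus is diluted, and in such bulk tissue fewer cells of a type and less RNA per cell cannot be told apart. The protocol states 6 saline mice while the labels list 8 saline libraries. The labels do not name the mouse behind each library, so the p-values measure the spread between these libraries, part of which may be technical.

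PSD-95, the product of Dlg4, is the most abundant scaffold of the excitatory postsynaptic density. Its PDZ domains hold NMDA receptors and the neuronal nitric oxide synthase next to each other, and anchor AMPA receptors through their auxiliary subunits. In the hypothalamus, glutamate acts through these receptors on the arcuate neurons that make the appetite-promoting peptides AgRP and NPY and the appetite-suppressing products of Pomc and Cartpt. The study's design addresses which hypothalamic transcripts differ after PSD-95 inhibition.

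Estimated counts summed to 5727283 to 8233240 per library, and 20838 to 21722 genes had at least 1 count. Of 45706 genes, 15517 had enough counts to be tested, and they held 99.7% of all counts. The biological coefficient of variation was 8.04%, and the median standard error of a log2 fold change was 0.08. The share of counts from mitochondrially encoded genes was 9.68 ± 0.628% in PSD-95i (SD, n = 8) and 10.02 ± 0.399% in saline (SD, n = 6). The difference was -0.338 percentage points (two-sided exact permutation test over 3003 splits, p = 0.2804). Markers of hypothalamic nuclei were present. All 24 of that list were tested, with summed levels of 488 to 582 CPM in PSD-95i and 455 to 601 CPM in saline. The thalamus list summed to 656 to 737 CPM in PSD-95i and 618 to 734 CPM in saline. Such sums therefore do not check the tissue label. CPM below are scaled by TMM, a correction for library composition, unless a share of the library total is named.

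After PSD-95 inhibition 1 gene, Hr, passed the test across all genes and rose, and 0 fell (edgeR quasi-likelihood test, Benjamini-Hochberg adjusted p under 0.05). This is 0.00644% of the genes tested. Hr encodes the hairless protein, a nuclear corepressor that binds the thyroid hormone receptors and the vitamin D receptor, and in brain it is a target gene of thyroid hormone. Its levels were 58.3, 61.7 and 65.3 CPM (lowest, median and highest) in PSD-95i and 44.6, 50.6 and 53.6 CPM in saline. Every PSD-95i library stood above every saline library. The rise was 0.30 ± 0.05 on the log2 scale (95% interval 0.20 to 0.40, adjusted p = 0.0355), from a mean of 49.9 ± 3.35 CPM (SD, n = 6) to 61.4 ± 2.48 CPM (SD, n = 8). The gene (ENSMUSG00000022096) lies on chromosome 14 from 70552212 to 70573548 of GRCm38, on the plus strand, and overlaps no other annotated gene.

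All 3 tested transcripts of Hr had higher estimates in PSD-95i. The main form (ENSMUST00000163060) stood at 46.0, 47.6 and 53.1 CPM against 34.97, 40.9 and 44.5 CPM, a log2 difference of 0.25 ± 0.06. The second form (ENSMUST00000161069) gave 0.49 ± 0.11 and the third (ENSMUST00000022691) 0.38 ± 0.12. The groups did not overlap for the main and the second form, and overlapped slightly for the third. None of them passed among 37010 transcripts tested, and the smallest adjusted p of any transcript was 0.687. The transcript layer thus had 0 calls, 0% of those tested. At an unadjusted p under 0.05 it had 946 higher (2.56%) and 884 lower (2.39%), 4.94% together, and limma-voom also called 0. Groups without overlap were found for 13 transcripts toward higher levels (0.0351%) and 5 toward lower levels (0.0135%), 0.0486% together.

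The Hr call was close to the threshold. Leaving out 1 library at a time kept the log2 fold change between 0.27 and 0.32, but the call held in 2 of 14 such fits, without saline replicate 6 (adjusted p = 0.0283) and without PSD-95i replicate 5 (0.0432). In the other 12 the adjusted p reached at most 0.197, without saline replicate 7. As shares of the library total, the saline libraries that were left out had 50.1 CPM (replicate 2) and 61.2 CPM (replicate 3) of Hr, the latter inside the PSD-95i range of 57.7 to 65.2 CPM. These totals include pituitary RNA, and Dlg4 had shares of 456.2 and 503.2 CPM there, against 567.7 to 671.9 CPM in the saline libraries kept. With all 8 saline libraries the difference was 0.25 (adjusted p = 0.379). Genes of the thyroid hormone receptors, chosen after the Hr result was seen, gave 0.04 ± 0.04 for Thra (adjusted p = 0.922) and 0.03 ± 0.09 for Thrb (adjusted p = 0.990).

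**Figure D1:**
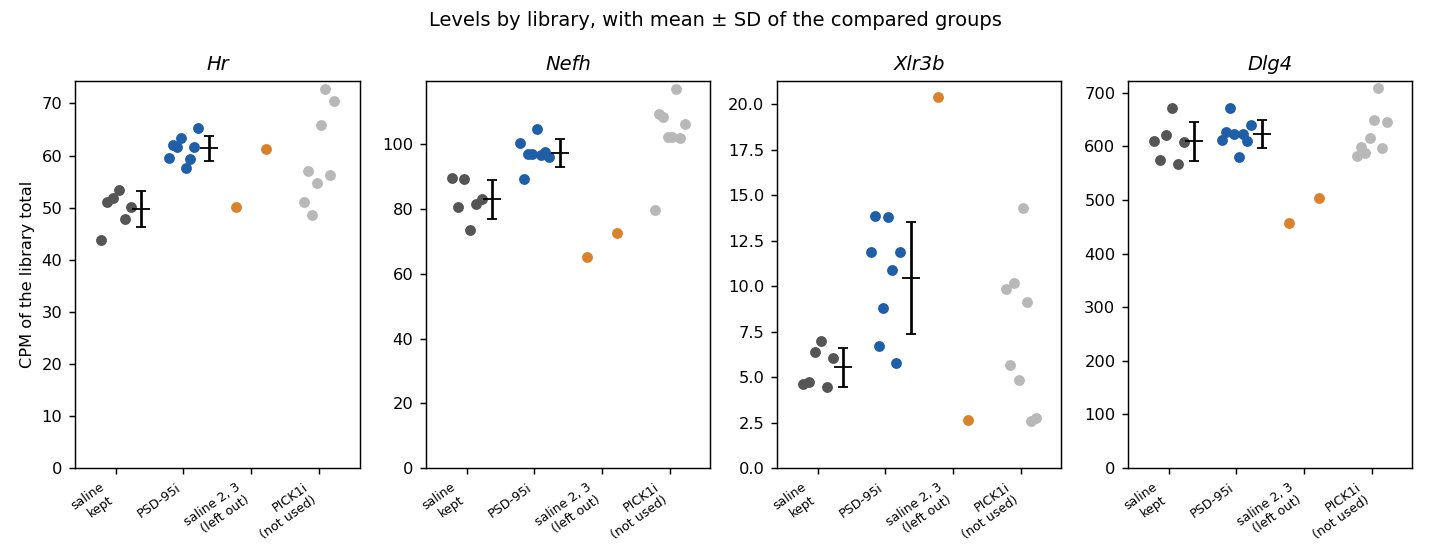
CPM (counts scaled to a common library total) for Hr, Nefh, Xlr3b and Dlg4, 1 point per library, from 0 on a linear axis. Black marks give mean ± SD of the 6 saline and 8 PSD-95i libraries compared; the saline libraries left out (orange) and the PICK1i libraries (light grey) were not in the fit. For Hr all PSD-95i points (57.7 to 65.2) lie above the kept saline points (43.8 to 53.4).

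Beyond Hr, the distribution of the p-values was close to flat. The next smallest adjusted p was 0.612. At an unadjusted p under 0.05, 429 genes (2.76%) were higher and 419 (2.7%) lower, 5.46% together. Groups without any overlap occurred for 8 genes toward higher levels (0.0516%) and 3 toward lower levels (0.0193%), 0.0709% together. The 8 were Hr, Tmem229b, Gm10031, Pi4kb, Dennd4b, Atp1b1, Cd3eap and Nudt19, and the 3 were D16Ertd472e, Rbm22 and Pan2. Most of these names fall outside the rule for named genes and were chosen after their values were seen.

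The genes next in rank toward higher levels are given as values, since none passed edgeR's test. Xlr3b, an X-linked gene of a family expressed in lymphoid and germ cells and in brain, stood at 5.72, 11.3 and 13.9 CPM in PSD-95i and at 4.47, 5.35 and 7.01 CPM in saline, a log2 difference of 0.92 ± 0.19 (edgeR adjusted p = 0.612, and 0.0172 by DESeq2). The groups overlapped through PSD-95i replicates 3 and 7, the lowest of theirs at 6.71 and 5.72 CPM. Its near copies Xlr3a and Xlr3c gave 0.45 ± 0.18 and 0.61 ± 0.21. Xlr3b shares 52.8% of its 52-base words with them, so reads of this length cannot always be placed, and the split among the 3 genes is uncertain. Saline replicate 2, left out for its Gh, had 20.4 CPM of Xlr3b as a share of its total, above every PSD-95i library.

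Nefh, the heavy neurofilament chain of large axons, stood at 89.3, 97.2 and 105.8 CPM in PSD-95i and at 74.0, 82.0 and 91.3 CPM in saline. All 8 PSD-95i libraries were above the saline median, with a slight overlap of the groups. The log2 difference was 0.22 ± 0.05 (edgeR adjusted p = 0.612, and 0.0377 by DESeq2). Its partners in the neurofilament moved to the same side without passing. Nefl, the light chain, gave 0.11 ± 0.04, and Nefm, the medium chain, gave 0.16 ± 0.05. Both were above the saline median in 8 of 8 libraries.

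The other 9 higher genes of smallest p had log2 differences of 0.15 to 0.53. Kcnj10, the inward rectifier potassium channel of astrocytes, stood at 354.6, 381.0 and 425.1 CPM against 325.9, 347.0 and 368.9 CPM (0.17 ± 0.04). Nlgn2, the adhesion protein of inhibitory synapses, stood at 125.4, 141.3 and 178.2 CPM against 114.4, 124.1 and 132.5 CPM (0.23 ± 0.06). The groups overlapped for both, although all 8 PSD-95i libraries exceeded the saline median. Dner, a neuronal transmembrane protein with EGF-like repeats, gave 0.15 ± 0.04. Uncx, a homeodomain transcription factor of hypothalamic and other neurons, gave 0.53 ± 0.15, from a low level of 4.03 to 9.52 CPM in saline. Inpp5j, a phosphatase of inositol lipids, gave 0.30 ± 0.09, and the adaptor gene Sh3kbp1 gave 0.21 ± 0.06. Mrps34 of the small mitochondrial ribosome subunit (0.22), Atxn7l3 of the SAGA deubiquitinase module (0.19) and Tmem229b (0.31) completed the 12. The adjusted p of all but the leading 3 was 0.901.

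**Figure D2:**
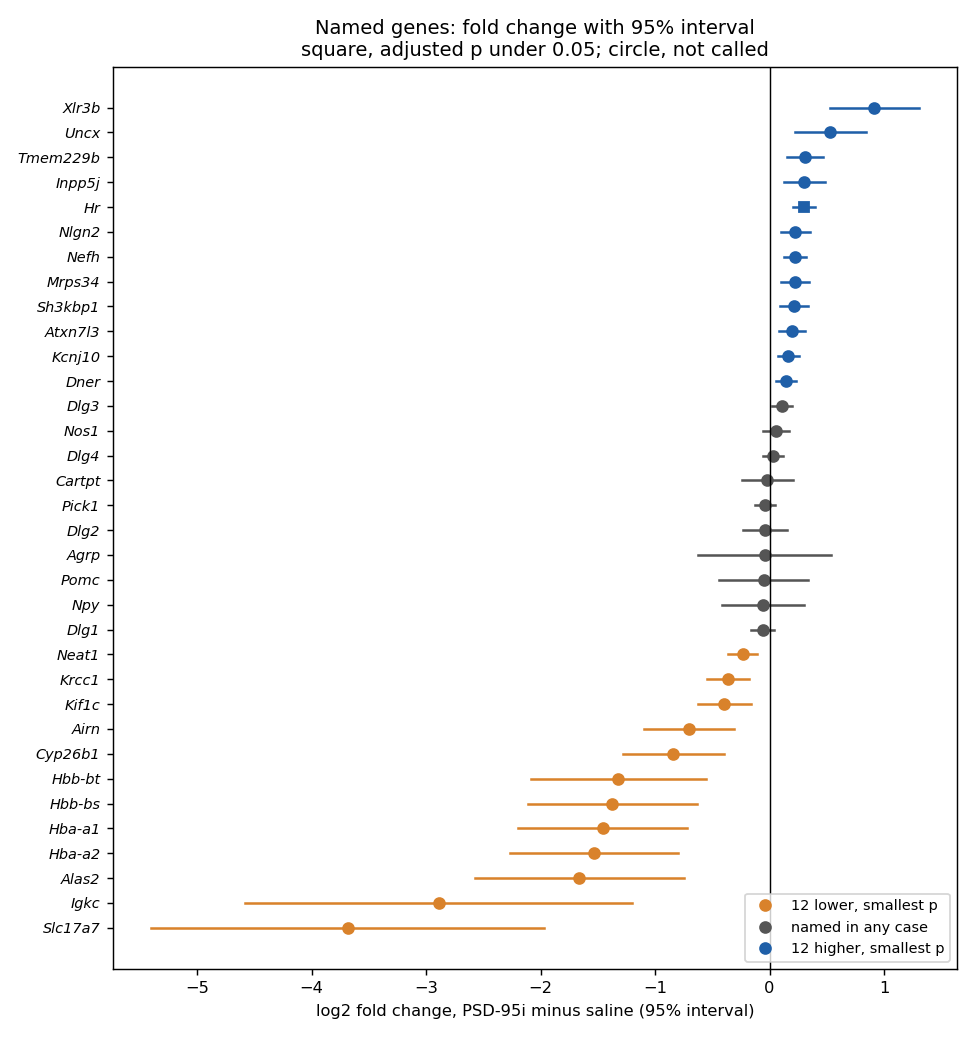
Log2 fold change of PSD-95i minus saline, with its 95% interval, for the 12 higher and the 12 lower genes of smallest p and the 10 genes named in any case. Hr is drawn as a square because it is the only one with an adjusted p under 0.05; the intervals of the target and appetite genes in grey, other than Dlg3, include 0.

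Toward lower levels, the 12 genes of smallest p included several with 1 or a few high saline libraries. Slc17a7, the vesicular glutamate transporter of cortical and hippocampal neurons, stood at 0.853, 1.46 and 2.17 CPM in PSD-95i and at 0.999, 3.65 and 82.2 CPM in saline. Saline replicates 6 and 7 held 82.2 and 26.2 CPM, and the other 4 saline libraries at most 5.19 CPM. The log2 difference of -3.69 ± 0.82 (edgeR adjusted p = 0.832, and 0.0294 by DESeq2) was -2.31 without saline replicate 6 and -0.77 without both. The cortex and hippocampus list, which contains Slc17a7 and so is not independent of it, was highest in the same libraries. Its mean log2 deviation was 1.13 in saline replicate 6 and 0.552 in replicate 7, against at most 0.222 in the other 12 libraries. Its summed level ran from 255 to 511 CPM in saline and from 266 to 334 CPM in PSD-95i. Of its 12 genes, 2 had too few counts to be tested.

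Igkc, the constant region of the immunoglobulin kappa light chain and a marker of plasma cells, showed the same kind of unevenness. It stood at 0.243, 1.28 and 5.52 CPM in PSD-95i and at 0.248, 3.73 and 56.5 CPM in saline, with the top value in saline replicate 7. Its log2 difference of -2.89 ± 0.81 became -1.11 without that library. Neat1, the architectural RNA of nuclear paraspeckles, also peaked there, at 328.3 CPM against 246.9 to 275.6 CPM in the other saline libraries, and had a log2 difference of -0.24 ± 0.06. PSD-95i libraries held 193.5 to 252.8 CPM of Neat1, a narrow overlap with saline.

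Kif1c, a kinesin of vesicle transport, had a high and a low level, and among the 14 libraries the low one was found in PSD-95i alone. All 6 saline libraries held 191.8 to 224.4 CPM, and so did PSD-95i replicates 1, 3 and 4, at 196.5, 220.3 and 196.8 CPM. PSD-95i replicates 2, 5, 6, 7 and 8 held 130.6 to 137.2 CPM. No library lay between these levels. The log2 difference of the groups was -0.39 ± 0.11 (edgeR adjusted p = 0.901). Outside the comparison, as shares of the library total, the PICK1i libraries ranged from 127.3 to 241.4 CPM. Saline replicates 2 and 3 held 141.0 and 161.7 CPM, shares whose totals include pituitary RNA, as for Dlg4 above.

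The other lower genes of smallest p included Cyp26b1, which degrades retinoic acid, at 2.60, 3.82 and 5.97 CPM against 4.43, 5.95 and 11.2 CPM (-0.84 ± 0.21). The groups overlapped, with 7 of 8 PSD-95i libraries below the saline median. Krcc1 gave -0.36 ± 0.09. Airn, a long noncoding RNA that runs antisense to Igf2r, gave -0.70 ± 0.19. How strand was used in counting is not stated in the labels, so the identity of reads assigned to Airn is uncertain. The remaining 5 are genes of red blood cells.

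**Figure D3:**
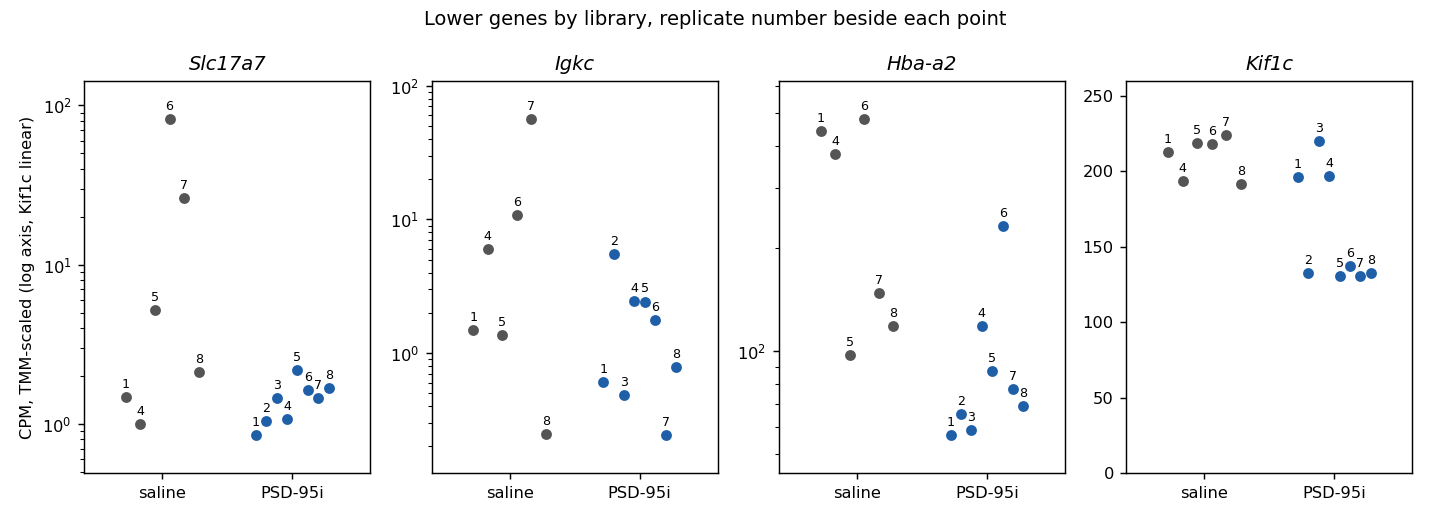
TMM-scaled CPM of Slc17a7, Igkc, Hba-a2 and Kif1c by library, with the replicate number beside each point; the axis is logarithmic except for Kif1c, where it is linear from 0. Saline replicates 6 and 7 lead for Slc17a7 (82.2 and 26.2 CPM), saline replicate 7 for Igkc (56.5 CPM) and saline replicates 1, 4 and 6 for Hba-a2, and Kif1c shows its separate levels.

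Globin transcripts mark red blood cells that remain in the tissue. Hba-a2, an alpha globin gene, stood at 56.8, 73.3 and 232.0 CPM in PSD-95i and at 97.4, 263.7 and 478.9 CPM in saline, a log2 difference of -1.53 ± 0.35 (edgeR adjusted p = 0.901). High levels were found in saline replicates 1, 4 and 6 (442.8, 379.1 and 478.9 CPM), and among PSD-95i libraries in replicate 6 (232.0 CPM). Hba-a1 gave -1.46 ± 0.35, and the beta globin genes gave -1.38 ± 0.35 (Hbb-bs) and -1.32 ± 0.37 (Hbb-bt). Hba-a1 shares 71.9% of its 52-base words with Hba-a2 and Hbb-bs 53.1% with Hbb-bt, so each pair is better read together. Alas2, which starts haem synthesis in red cell precursors, stood at 1.46, 2.05 and 9.03 CPM against 2.47, 9.19 and 16.1 CPM (-1.66 ± 0.44). Of 8 tested genes of this list, 0 passed and 6 were lower at an unadjusted p under 0.05, with a median of -1.35, against 2.7% of all genes and a median of -8.96e-05. The summed level of the list was 336 to 781 CPM in PSD-95i and 426 to 1277 CPM in saline, so the groups overlapped. Across fits that left out 1 library the median stayed between -1.69 and -1.15.

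Vessel and meningeal markers were likewise lower on median, and 1 saline library carried most of it. Of 16 endothelial genes 5 were lower at an unadjusted p under 0.05 (background 2.7%) and 0 higher, with a median of -0.11. Eng (-0.23 ± 0.08), the VEGF receptor gene Kdr (-0.29 ± 0.11), the receptor gene Tie1 (-0.31 ± 0.12) and the tight junction gene Cldn5 (-0.23 ± 0.10) led the list. Saline replicate 7 had a summed endothelial level of 636 CPM, against 403 to 499 CPM in the other 13 libraries. Without it the median was 0.01, and 2 genes were lower and 1 higher. Of 12 mural cell genes 2 were lower, the pericyte genes Kcnj8 (-0.42 ± 0.14) and Pdgfrb (-0.19 ± 0.07), and the median of -0.26 became -0.08 without saline replicate 7. The count of 2 became 7 without saline replicate 1 and 1 without saline replicate 7. All 21 leptomeningeal fibroblast genes were below 0, 2 of them at an unadjusted p under 0.05 (Col6a1 at -0.35 ± 0.14 among them), with a median of -0.46. Without saline replicate 7, which held 972 CPM of this list against 140 to 592 CPM elsewhere, the median was 0.08 and 13 of 21 were above 0. The count of 2 became 6 without saline replicate 1 and 0 without saline replicate 6 or 7. The defining marker Dcn ranged from 7.11 to 31.1 CPM in PSD-95i and from 9.40 to 51.6 CPM in saline. All genes of the endothelial, mural and leptomeningeal lists had enough counts to be tested. The part of these cell types in the gene differences above was not tested beyond leaving out libraries.

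**Figure D4:**
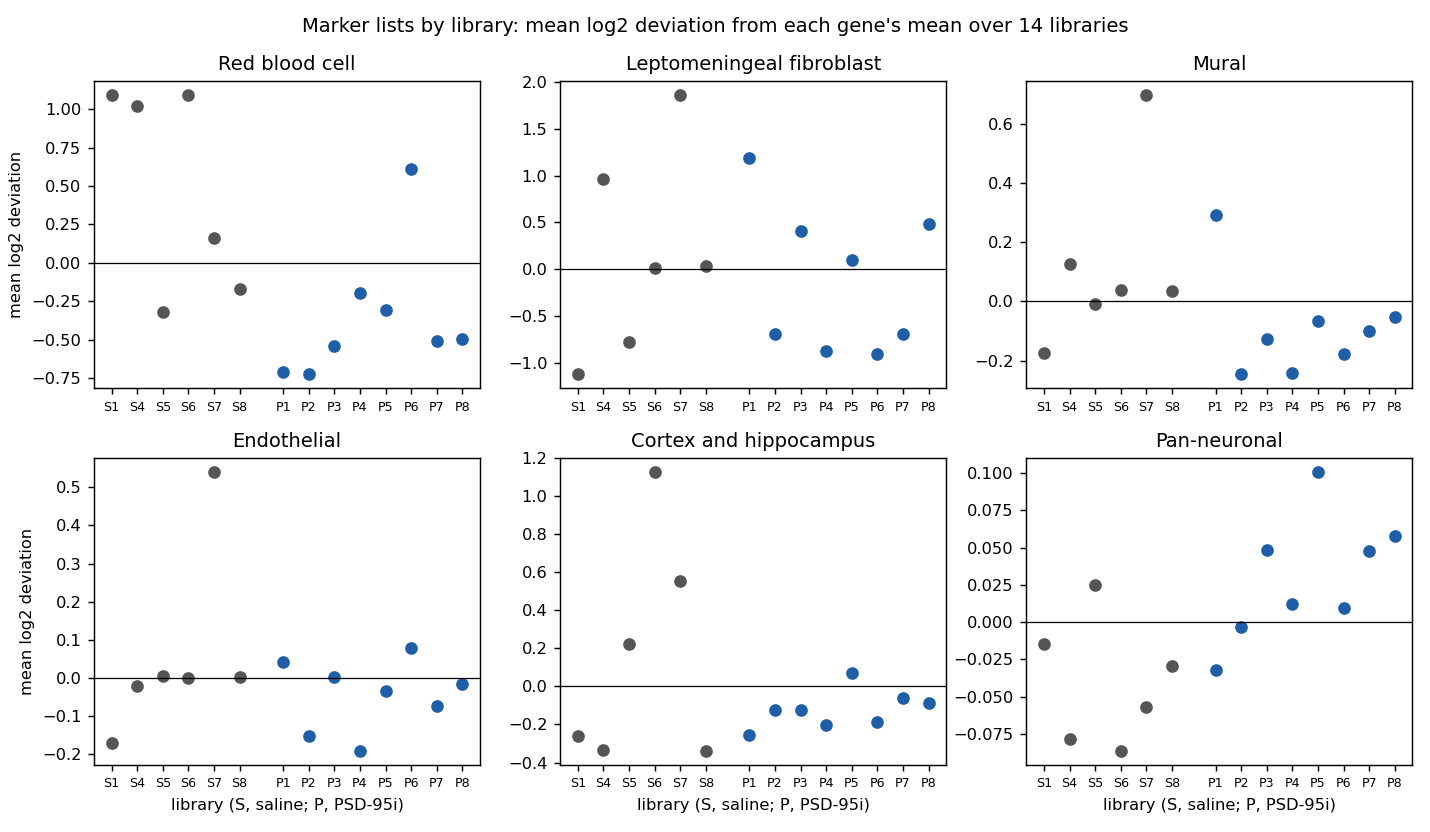
Mean log2 deviation of 6 marker lists in each library from the gene means over 14 libraries; S and P are saline and PSD-95i with the replicate number, and each panel has its own scale. Saline replicate 7 stands highest for leptomeningeal, mural and endothelial genes, saline replicate 6 for cortex and hippocampus, and saline replicates 1, 4 and 6 for red blood cells. The pan-neuronal panel runs only from -0.0864 to 0.101.

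Neuronal markers lay slightly above 0. Of 14 pan-neuronal genes 5 were higher at an unadjusted p under 0.05 (background 2.76%), 0 were lower and 13 had a log2 fold change above 0, against 50% of all genes. The list median was 0.05 and stayed between 0.04 and 0.07 when 1 library was left out. The 5 were the neurofilament genes Nefh, Nefl and Nefm, the related Ina (0.09) and the neuronal tubulin gene Tubb3, which stood at 493.9 to 561.7 CPM in PSD-95i against 464.2 to 549.0 CPM in saline (0.11 ± 0.04). Leaving out saline replicates 6 and 7 together reduced the 5 to 2. Astrocyte genes had a median of 0.00 over 15. Genes of reactive astrocytes had a median of -0.13 over 12, 10 of them below 0 and 0 past the unadjusted threshold, with the intermediate filament gene Gfap first by p (-0.20 ± 0.10). The median for oligodendrocyte precursor genes was 0.04 over 12. Myelin genes had a median of -0.04 over 20, with Mbp, the myelin basic protein gene, at -0.19 ± 0.07. Microglial genes had a median of -0.09 over 18, with 2 lower (2.7% of all genes). These were the fractalkine receptor gene Cx3cr1 (-0.15 ± 0.06) and the antigen presentation gene Cd74 (-0.84 ± 0.36). Saline replicate 7 held 62.1 CPM of Cd74, the highest of the 14, and without it the value was -0.32.

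Markers of cells that line the ventricles centred below 0, choroid plexus genes least. Ependymal genes had a median of -0.16 over 13, 2 of them lower at an unadjusted p under 0.05, with the cilium gene Ccdc153 at -0.25 ± 0.09. Tanycyte genes had a median of -0.07 over 20, with 1 lower, Nes (-0.25 ± 0.08), which encodes the intermediate filament nestin. Choroid plexus genes had a median of -0.02 over 8 (0.03 without saline replicate 7), with 1 higher and 2 lower (2.76% and 2.7% of all genes). The higher one was Clic6, a chloride channel family gene (0.17 ± 0.06), and of the lower ones Calml4 gave -0.76 ± 0.26 and Ttr, the thyroid hormone carrier transthyretin, gave -1.41 ± 0.59. Saline replicate 7 held 16.5 CPM of Ttr, and no other of the 14 libraries more than 4.73 CPM. Without saline replicate 7 the value for Ttr was -0.17.

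The genes closest to the compound's target showed no difference past the test. Dlg4 stood at 586.2, 622.9 and 668.8 CPM in PSD-95i and at 566.4, 612.0 and 674.6 CPM in saline, so the groups overlapped fully. Its log2 difference was 0.03 ± 0.04, with a 95% interval of -0.06 to 0.12 (edgeR adjusted p = 0.960). The compound binds the protein, so this level does not check the labels. Dlg1, which encodes SAP97, gave -0.06 ± 0.05, and Dlg2, which encodes PSD-93, gave -0.04 ± 0.09. Dlg3, which encodes SAP102, stood at 73.3, 75.5 and 80.8 CPM against 65.4, 70.3 and 78.5 CPM (0.11 ± 0.04, adjusted p = 0.901), with 8 of 8 PSD-95i libraries above the saline median. Nos1, the neuronal nitric oxide synthase that PSD-95 couples to NMDA receptors, gave 0.06 ± 0.05, and Pick1 gave -0.04 ± 0.04. The interval of each of these 6 genes lay between -0.23 and 0.20. Of 10 tested Dlg4 transcripts 1 had an unadjusted p under 0.05 (4.94% of all transcripts), ENSMUST00000108589 at 0.10 ± 0.04. The most abundant Dlg4 form gave -0.01 ± 0.04. Of 6 tested Dlg3 transcripts 1 was under that threshold, ENSMUST00000113736 at 0.48 ± 0.18. For Dlg1, Dlg2, Nos1 and Pick1 the count was 0 each.

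A list of PSD-95 family scaffolds, neuronal nitric oxide synthase and partners had 13 tested genes. It repeats genes given above, Dlg4 and Dlg3 among them, and so is not independent of them. Of the 13, 0 passed, and 4 were higher and 1 lower at an unadjusted p under 0.05 (2.76% and 2.7% of all genes). The list median was 0.03, the value of Dlg4. The 4 were Dynll2, the dynein light chain that binds the scaffold (0.18 ± 0.06), Adam23, a receptor of the secreted protein LGI1 (0.10 ± 0.04), its relative Adam22 (0.14) and Dlg3. Lgi1 itself was the lower one, at 79.8 to 89.0 CPM against 87.5 to 93.1 CPM (-0.09 ± 0.04), with 8 of 8 PSD-95i libraries below the saline median. Without saline replicate 7 the 4 became 1, and the other fits that left out 1 library gave 3 or 4.

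Glutamate receptor genes stayed near 0. Of 6 tested NMDA receptor subunit genes, 0 were higher and 0 lower at an unadjusted p under 0.05. The lowest were Grin2a, at 28.0 to 37.3 CPM against 34.0 to 41.0 CPM (-0.13 ± 0.07), and Grin2b (-0.12 ± 0.08). Of 21 genes for AMPA receptors and their auxiliary subunits also 0 and 0 (up to 3 higher when 1 library was left out, saline replicate 5), with a median of 0.01 and the auxiliary subunit gene Shisa9 first by p (0.09 ± 0.05). Of 14 kainate and metabotropic receptor genes 3 were higher (2.76% of all genes) and 0 lower, with a median of 0.02. Among them were the metabotropic receptor genes Grm4 (0.21 ± 0.08) and Grm2 (0.51 ± 0.21), of which Grm4 stood at 25.8 to 30.9 CPM against 19.1 to 29.4 CPM. The 3 became 0 without saline replicate 1, and 1 without saline replicate 6 or without PSD-95i replicate 1.

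Of 30 further genes listed for the postsynaptic density, 3 were higher and 1 lower at an unadjusted p under 0.05 (2.76% and 2.7% of all genes). The list median was 0.00. The higher ones were Kcnj10, Nlgn2 and Camk2d, a subunit of the calcium/calmodulin kinase (0.11 ± 0.05). Kcnj10 and Nlgn2, an astrocyte channel and an inhibitory synapse protein, were already given above among the higher genes of smallest p. The lower one was Akap5, which anchors protein kinase A at the receptor, at 19.4 to 25.3 CPM against 22.7 to 38.7 CPM (-0.33 ± 0.10). In the presynaptic list of 25 genes, Slc17a6, the vesicular glutamate transporter of hypothalamic neurons, gave 0.21 ± 0.07, with 8 of 8 PSD-95i libraries above the saline median. The complexin gene Cplx2 gave -0.15 ± 0.07. Like Slc17a7, it was highest in saline replicate 6, at 546.8 CPM against at most 418.4 CPM in PSD-95i, and without that library the value was -0.06. Of 21 GABA genes 1 was higher, the GABA-B receptor gene Gabbr1 (0.08 ± 0.04), and of 28 immediate early genes, which neurons switch on when active, 0 were higher and 0 lower. The immediate early gene of smallest p, Egr3, gave -0.62 ± 0.36. Saline replicate 6 held 8.59 CPM of Egr3, against a saline median of 2.14 CPM, and without it the value was -0.11.

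The arcuate appetite genes overlapped throughout. Agrp, the orexigenic melanocortin antagonist, stood at 1.53, 3.54 and 7.05 CPM in PSD-95i and at 2.47, 3.65 and 6.37 CPM in saline (-0.04 ± 0.28, 95% interval -0.62 to 0.54). Npy stood at 25.7, 42.6 and 57.1 CPM against 23.5, 42.5 and 64.1 CPM (-0.06 ± 0.17, interval -0.41 to 0.30). Pomc, the precursor of the melanocortins, stood at 67.4, 100.4 and 191.0 CPM against 76.9, 122.5 and 154.9 CPM (-0.05 ± 0.19, interval -0.44 to 0.34). As shares of the library total, PSD-95i replicate 3 held 41.4 CPM of Gh and 6.12 CPM of the prolactin gene Prl. What pituitary RNA adds to Pomc in that library was not tested. Cartpt, an anorexigenic peptide gene, stood at 93.8, 122.3 and 145.8 CPM against 83.2, 122.9 and 141.9 CPM (-0.02 ± 0.11, interval -0.24 to 0.20). The edgeR adjusted p was 0.996, 0.987, 0.991 and 0.993 in that order. Agrp had a low level that varied several-fold within PSD-95i, with the widest interval of the 4, and differences inside these intervals were not detectable. The annotated span of Agrp overlaps 7 other genes on both strands. As for Airn, the identity of reads assigned to it is therefore uncertain. Of its 3 transcripts 1 was tested, at 0.10 ± 0.28.

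Other feeding circuits gave the same picture. Of 10 arcuate peptide genes 0 were higher and 0 lower at an unadjusted p under 0.05, with a median of -0.05 and Sst, the somatostatin gene, at -0.10 ± 0.08. Of 5 lateral hypothalamic peptide genes also 0 and 0. Hcrt, the orexin precursor, varied from 12.9 to 171.4 CPM in saline alone (-0.41 ± 0.46, and -0.02 without saline replicate 1), and Pmch, the precursor of melanin-concentrating hormone, gave -0.13 ± 0.17. Among magnocellular genes, Oxt, the oxytocin precursor, gave -0.21 ± 0.16. Of 10 further feeding peptide genes 1 was lower (2.7% of all genes). It was Nmb, the neuromedin B gene (-0.57 ± 0.22), at 0.895 to 2.56 CPM against 2.10 to 3.25 CPM. Of 37 receptors and signalling genes of energy balance, leptin, insulin and melanocortin receptors included, 0 and 0 passed the unadjusted threshold, with a median of -0.01. Irs2, an adaptor of the insulin receptor, had the smallest p of them (0.19 ± 0.10). Transcription factors of hypothalamic nuclei had a median of 0.05 over 24, with 3 higher (2.76% of all genes): Lhx1 (0.34 ± 0.13) of the suprachiasmatic nucleus, Nkx2-1 (0.33 ± 0.14), and Foxb1 (0.61 ± 0.28) of the mammillary bodies. The count of 3 ranged from 1 (without saline replicate 1, 6, 7 or 8 or PSD-95i replicate 1, 2 or 4) to 5 (without saline replicate 5).

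**Figure D5:**
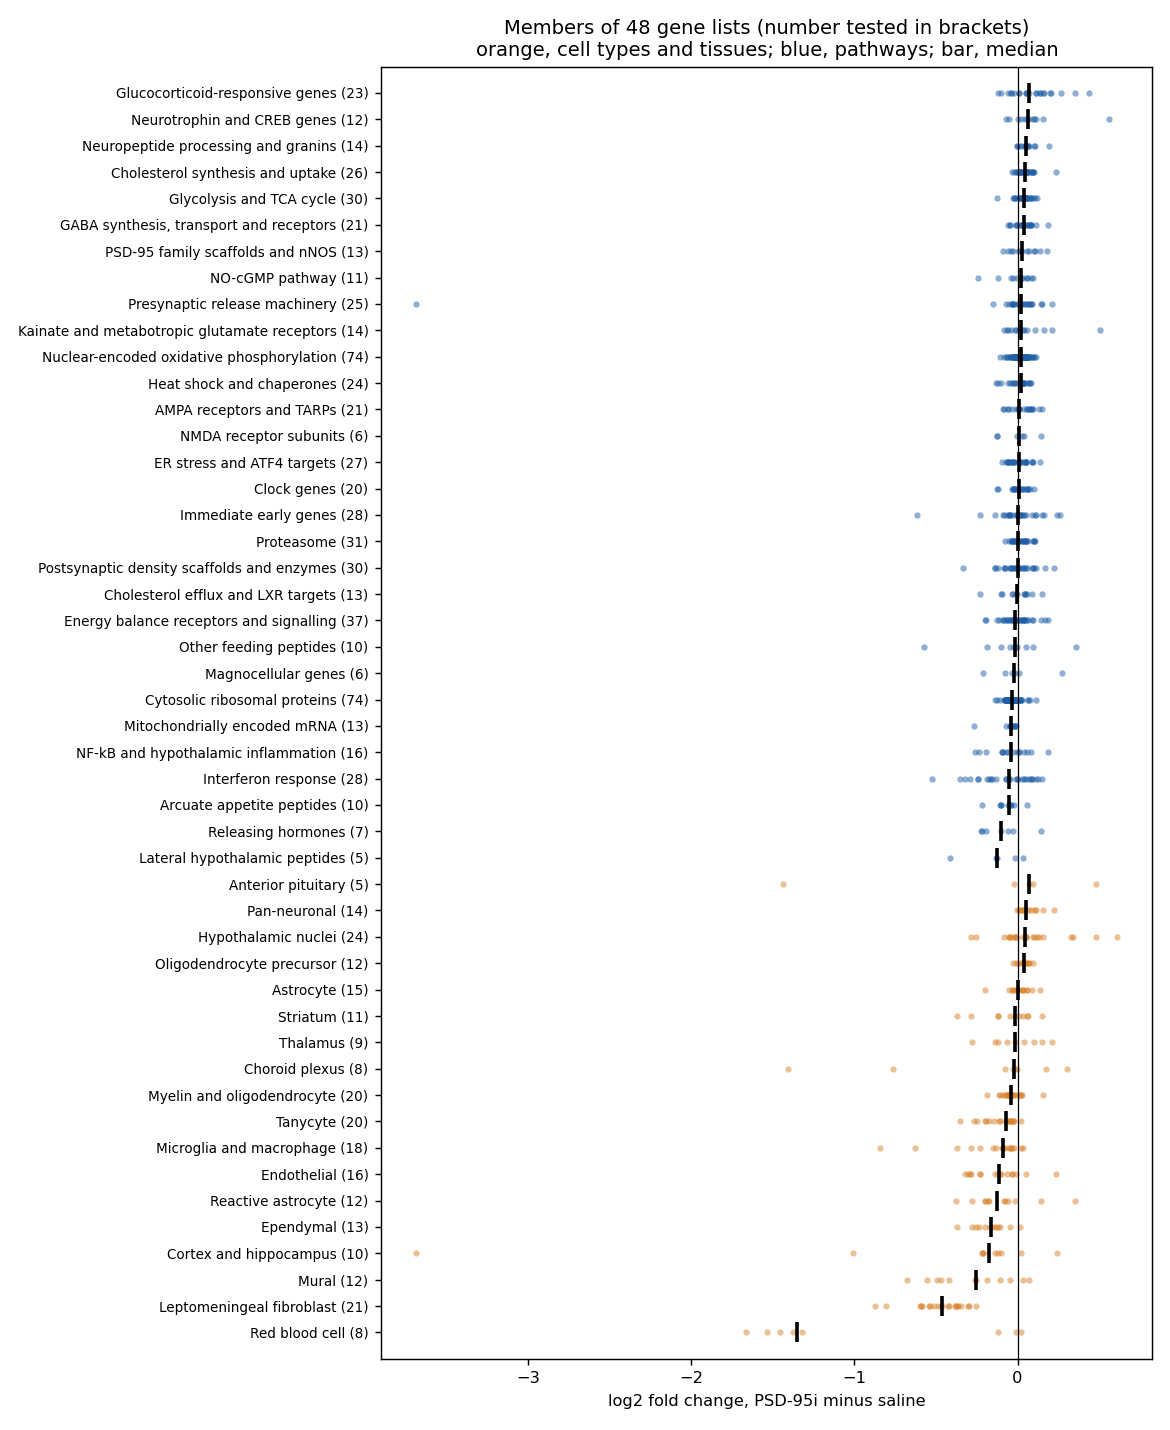
Log2 fold change, PSD-95i minus saline, of each tested member of 48 gene lists (1 point a gene), with the list median as a black bar and the number of members tested in brackets. Pathway lists (blue) have medians from -0.13 to 0.07; among cell type lists (orange) red blood cell, leptomeningeal and mural genes have the lowest medians (-1.35, -0.46 and -0.26).

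Metabolic and housekeeping lists centred close to 0. Of 26 genes for cholesterol synthesis and uptake 22 were above 0, against 50% of all genes, with a median of 0.05. By the test, 1 was higher at an unadjusted p under 0.05, Mvk, the mevalonate kinase gene, at 20.8 to 25.0 CPM against 17.8 to 23.98 CPM (0.23 ± 0.07). Of 30 glycolysis and TCA cycle genes 3 were higher (2.76% of all genes), with a median of 0.04, among them the neuronal enolase gene Eno2 (0.12 ± 0.04) and Ogdh of the oxoglutarate dehydrogenase complex (0.10 ± 0.04). Both were above the saline median in 8 of 8 PSD-95i libraries, and the count became 8 without saline replicate 5. Oxidative phosphorylation genes of the nuclear genome, 74 in all, had 1 higher and 0 lower, with a median of 0.02. Of 13 mitochondrially encoded mRNAs 1 was lower (2.7% of all genes), mt-Nd6 (-0.27 ± 0.08), the one encoded on the other strand of the mitochondrial genome. It overlaps mt-Nd5 on the opposite strand, so, as for Airn, the identity of reads assigned to it is uncertain. All 13 were below 0, against 50% of all genes above 0, with a median of -0.04. The groups overlapped, with a mean log2 deviation of -0.147 to 0.249 in PSD-95i and -0.187 to 0.212 in saline. The median changed sign in 1 alternative setting. Cytosolic ribosomal protein genes had a median of -0.03 over 74, with 61 below 0 and 13 above 0 (29 above 0 without PSD-95i replicate 1). Glucocorticoid-responsive genes had a median of 0.07 over 23, with 3 higher against 2.76% of all genes (0 without saline replicate 1, 5 without PSD-95i replicate 4), among them the cell cycle inhibitor gene Cdkn1a (0.27 ± 0.11) and the lipid droplet gene Plin4 (0.44 ± 0.18).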

How the data were processed

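Poly(A) RNA libraries were sequenced as 52-bp paired reads, per the labels' protocols. The authors deposited estimated counts for genes and for transcripts without normalization. STAR, Salmon, GRCm38 and bcl2fastq 2.20.0 are named in the submitters' processing notes. Settings, the annotation release, strand handling and any other version were not given in the sources used here. Over all 24 libraries 94.3% of gene values were whole (tolerance 0.001).

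Estimated counts were rounded, filtered with filterByExpr (minimum count 10), scaled by TMM and tested in R 4.3.3 with the two-sided quasi-likelihood test of edgeR 4.0.16 on the 14 libraries alone (12 residual degrees of freedom), with Benjamini-Hochberg adjustment over all genes or transcripts tested and a threshold of 0.05. Errors are standard errors derived from the F statistic, and intervals are 95%. Assignment error between transcripts is not in the test. Positions come from GENCODE M21, which held 45143 of 45706 gene identifiers. Of 43 pairs of replicates checked for duplication, 0 were identical. The script was tested on simulated data.

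Genes named were Dlg4, Dlg1, Dlg2, Dlg3, Nos1, Pick1, Agrp, Npy, Pomc and Cartpt; the 12 higher and 12 lower genes of smallest p with a mean of at least 1 CPM and no clone or model name; and up to 4 members of each list by p. Of the list members, 2 are not reported here by name. Thra, Thrb, Xlr3a and Xlr3c were added after the values were seen, as were Ina and Adam22. The members of the comparison and its 48 lists (938 genes, 886 tested) were chosen with earlier results of these data known. Alternatives were RLE factors, no filter, a stricter filter (1 CPM in 6 libraries), the replicate number as a block, library number as a covariate, limma-voom 3.58.1 with and without a random block of consecutive library numbers, DESeq2 1.42.0, adding the PICK1i libraries, all 8 saline libraries and leaving out each library; leaving out saline replicates 6 and 7 together was added after the data were seen. The PICK1i libraries were otherwise not used.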

Additional observations from a re-analysis of the deposited data

Results flagged for a closer look

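Of 108 groups of values tested, 17 had a highest or lowest library set apart from its group by Dixon's 95% limit. For independent, normally distributed values this limit flags about 1 in 20 groups. The groups here include genes chosen for small p and genes that vary together, so that rate is no measure of excess. Saline replicate 6 was set apart upward for Slc17a7 (82.2 CPM), Nos1 (149.9 CPM) and the striatum list (mean log2 deviation 0.347), and downward for its total count of 5727283. Saline replicate 7 was set apart upward for Igkc (56.5 CPM), Neat1 (328.3 CPM), the endothelial list (0.542) and the mural list (0.697). Saline replicate 4 was lowest for Atxn7l3, at 43.6 CPM. PSD-95i replicate 6 was set apart upward for all the red cell genes tested this way, with Hba-a2 at 232.0 CPM, Hba-a1 at 47.7 CPM, Hbb-bs at 217.9 CPM, Hbb-bt at 56.1 CPM, Alas2 at 9.03 CPM and the list at 0.613. PSD-95i replicate 2 was highest for Igkc (5.52 CPM) and PSD-95i replicate 1 for the mural list (0.292). The saline libraries left out of the comparison held 52238 CPM (replicate 2) and 31688 CPM (replicate 3) of Gh, above every other saline library.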

How the results depend on the processing

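The count of 1 called gene was 0 with the replicate number as a block (replicate block), with library number as a covariate, by limma-voom with a random block, with the PICK1i libraries added, with all 8 saline libraries and without saline replicates 6 and 7 together, and it was 0 to 1 when 1 library was left out. DESeq2 called 4 (Hr, Xlr3b, Slc17a7 and Nefh). RLE factors, no filter, the stricter filter and limma-voom called Hr alone. The count of 0 called transcripts was 19 without a filter, 3 with the replicate block, and 0 to 3 when 1 library was left out, with 3 without PSD-95i replicate 6; the cause was not tested. Shared replicate numbers did not mark pairs: correlations of same-numbered deviations were -0.224 to 0.126 over 6 pairs, 1 over 0.1. Library numbers lay between 11 and 22 in PSD-95i. In the saline libraries kept they lay between 3 and 10 or were 23 and 24. A block of consecutive numbers never held both groups, so group and library order cannot be fully told apart. Dlg4 (0.01 to 0.10) and the mitochondrial share (-0.442 to -0.0429 points) kept their direction and stayed uncalled. Of 2200 values over 88 named genes, 2145 kept direction and side of the threshold. Of the rest, 34 changed sign, 3 became called and 18 lost the call. Only Hr was called in the main fit, so all 18 were values of Hr, which lost its call in 18 of 25 alternative settings. The other named genes started uncalled, so their keeping the side of the threshold says little about robustness. With library number as a covariate the sign turned for Agrp (0.0384), Npy (0.0469), Pomc (0.0959) and Cartpt (0.0656). With all 8 saline libraries it turned for Dlg2 (0.0339), Agrp (0.145), Npy (0.0603), Cartpt (0.0949), Thrb (-0.170), Sst (0.0251), Pmch (0.0814), Lgi1 (0.0403) and Grin2b (0.0326). Pomc was at -5.13 in that fit. As shares of the library total, saline replicates 2 and 3, with their abundant Gh, held 13909 and 16807 CPM of Pomc. The saline libraries kept held 77.1 to 154.2 CPM. Without saline replicates 6 and 7 together the sign turned for Thrb (-0.0200) and Ttr (0.362). Leaving out 1 library gave -0.0737 to 0.0163 for Dlg2, -0.213 to 0.163 for Agrp, -0.186 to 0.0976 for Npy, -0.194 to 0.0415 for Pomc, -0.109 to 0.0331 for Cartpt, -0.0130 to 0.101 for Thrb and -0.235 to 0.0762 for Pmch. With all 8 saline libraries, 752 genes were higher and 1231 lower at an unadjusted p under 0.05. Agrp had 12 to 51 counts per library.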
